A study of Ovis aries with 42 samples.

Results

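Of the 27054 Ensembl sheep gene IDs in the deposited count table, 4 are described here: ENSOARG00000020185, ENSOARG00000018621, ENSOARG00000020201 and ENSOARG00000014240. They were chosen because their counts were higher in anestrous than in follicular hypothalamus and varied widely among the anestrous libraries. Their hypothalamus phase differences and their anestrous spread are therefore given as descriptions, with no test. No gene names come with the IDs, and 0 of them matched the 35057 genes of the RefSeq gene table used here (ARS-UI_Ramb_v3.0), so the 4 features are given by ID, with no function, position or sequence.

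RNA was sequenced from hypothalamus (HT) and pars tuberalis (PT) of adult female sheep of the breed Rasa Aragonesa in the luteal, follicular and anestrous phases. Each of the 6 groups of tissue and phase holds 7 libraries, numbered 1 to 42 across the study: HT luteal 1 to 7, HT follicular 8 to 14, HT anestrous 15 to 21, PT luteal 22 to 28, PT follicular 29 to 35 and PT anestrous 36 to 42. The labels name no treatment, age or genotype beyond adult ewes of 1 breed, and they do not say whether the libraries of a group, or those of the 2 tissues, came from separate ewes. A p-value here therefore measures the spread between libraries only.

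The hypothalamus is the brain region that sets the release of reproductive hormones from the pituitary. The pars tuberalis, a thin layer of pituitary tissue against the base of the hypothalamus, carries melatonin receptors and passes day length to the hypothalamus. Seasonal ewes cycle through a luteal phase, dominated by progesterone, and a follicular phase, which ends in ovulation, and they stop cycling in anestrus.

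Levels are given as CPM, counts scaled to a fixed total by the effective library size, which is the library total times its TMM normalization factor, set across all 42 libraries. Library totals ran from 14649356 to 37726207 counts. Counts of the 4 features ran from 24 to 11189 with 0 zero values, and the lowest count carries a counting error of 20.4%. Library 15 stood apart from its group: the 10 largest features took 14.8% of its counts, against 24.9% to 40.8% in the other 6 HT anestrous libraries. Over the 42 libraries this share was the lowest and the highest was 42.97%, but PT library 23 was close to the lowest, at 14.94%. The log2 profile of library 15 correlated at 0.913 with the median of the other 6 HT anestrous libraries, while the other 6 correlated at 0.947 to 0.978 with theirs. In bulk tissue, a change in the number of cells of a type and a change in RNA per cell cannot be told apart.

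In the anestrous hypothalamus, 3 of 7 libraries (16, 17 and 19) held most of the signal of ENSOARG00000020185 and ENSOARG00000018621. ENSOARG00000020185 stood at 6.35 CPM in library 15, 312 in 16, 637 in 17, 29.1 in 18, 167 in 19, 13.7 in 20 and 20.8 in 21. The group mean was 169 CPM ± 235 (SD, n = 7), and the highest library exceeded the lowest 100.3-fold. Libraries 16, 17 and 19 lay above every HT follicular and HT luteal library, while libraries 15, 18, 20 and 21 lay within or below the range of the 2 cycling phases. ENSOARG00000018621 stood at 5.39 CPM in library 15, 134 in 16, 328 in 17, 13.1 in 18, 108 in 19, 16.1 in 20 and 8.64 in 21. Its mean was 87.7 CPM ± 118.5 (SD, n = 7). The same 3 libraries were highest in the same order, and library 15 was lowest for both features.

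ENSOARG00000020201 and ENSOARG00000014240 varied over a narrower range. ENSOARG00000020201 stood at 18.8 CPM in library 15, 41.5 in 16, 62.7 in 17, 19.2 in 18, 73.9 in 19, 13.7 in 20 and 11.4 in 21, with a mean of 34.4 CPM ± 25.3 (SD, n = 7). Libraries 16, 17 and 19 were again the 3 highest, with library 19 above library 17. ENSOARG00000014240 stood at 19.3 CPM in library 15, 28.8 in 16, 30.8 in 17, 11.1 in 18, 11.7 in 19, 8.93 in 20 and 4.78 in 21, with a mean of 16.5 CPM ± 10.1 (SD, n = 7). Here library 19 sat at the group median and library 15 was the third highest.

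On the log2(CPM + 0.5) scale the SD among the HT anestrous libraries was 2.48 for ENSOARG00000020185, 2.25 for ENSOARG00000018621, 1.06 for ENSOARG00000020201 and 0.92 for ENSOARG00000014240. The median SD of the 16350 features tested in the hypothalamus was 0.48. The shares of those features with a smaller SD were 99.9%, 99.7%, 94.4% and 90.8%, in the same order. Wide spread was part of the choice, so these shares describe the features and test nothing.

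**Figure D1:**
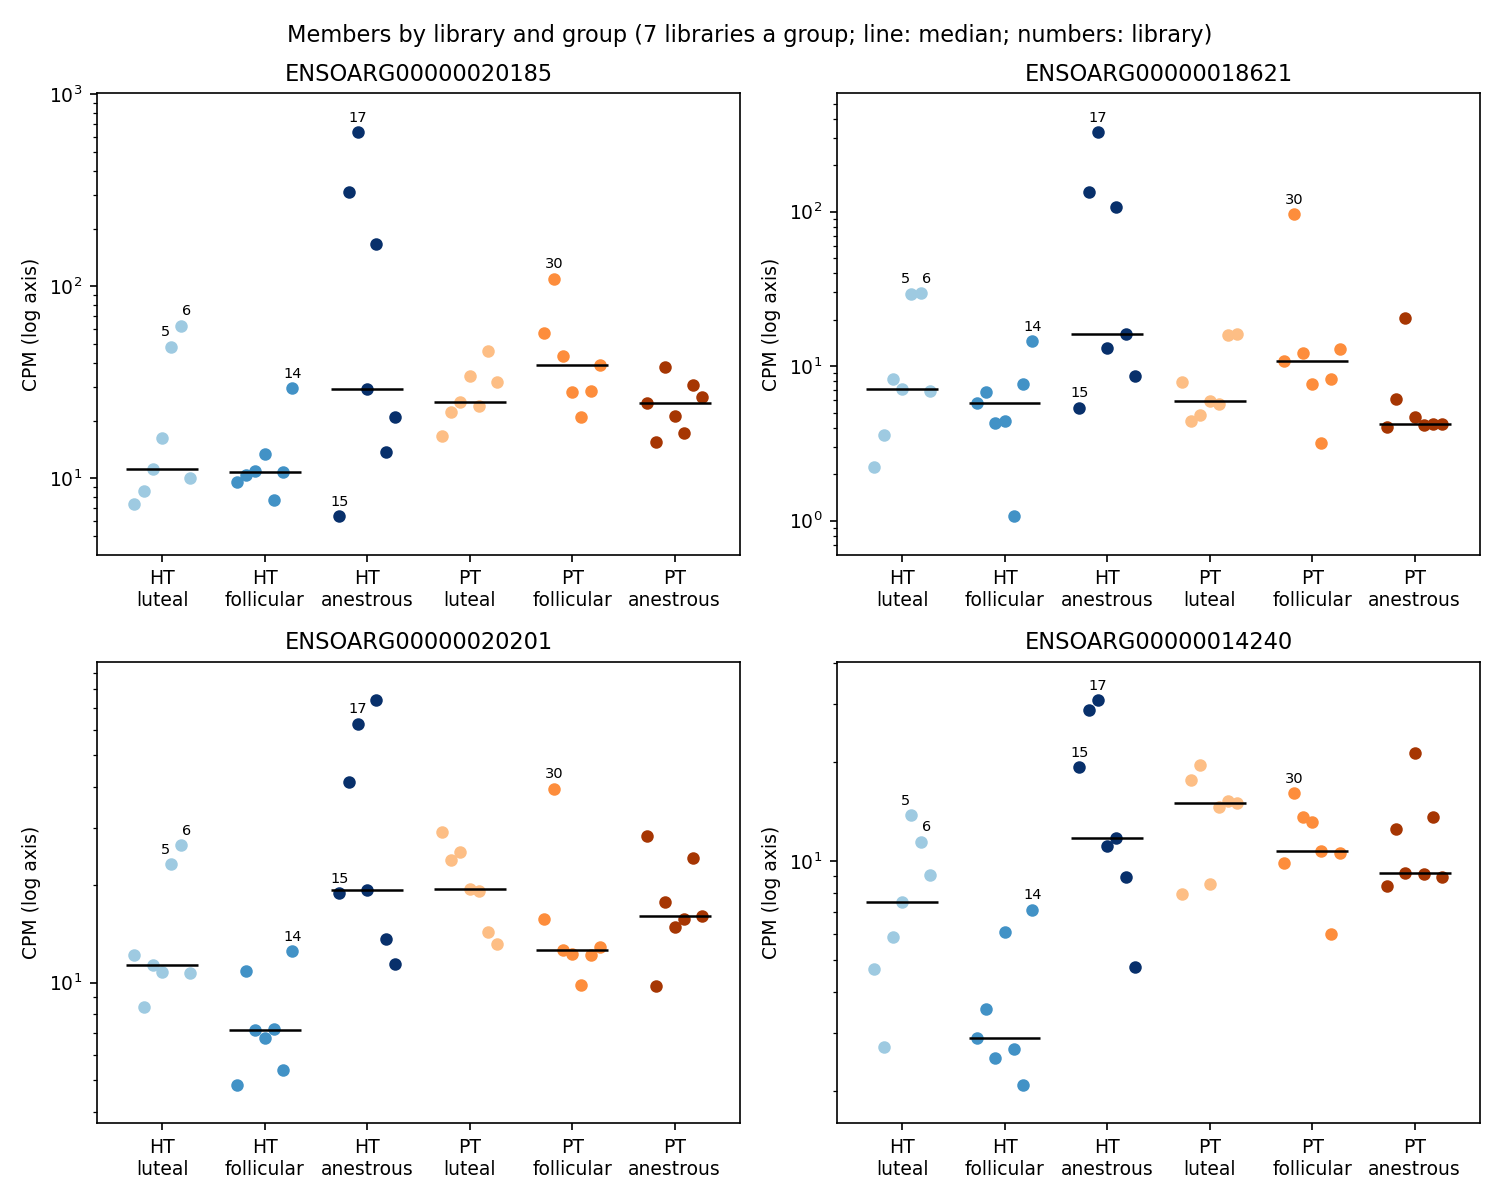
CPM (log axis) of the 4 features in each of the 42 libraries by group, with the group median as a line and libraries 5, 6, 14, 15, 17 and 30 numbered. Library 17 is the highest HT anestrous library for 3 of the 4 features, and library 15 is the lowest for ENSOARG00000020185 and ENSOARG00000018621 but not for the others.

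Libraries 15 and 17 marked the ends of this range for 2 of the features and not for the other 2. Library 17 was the highest of the 21 HT libraries for ENSOARG00000020185, ENSOARG00000018621 and ENSOARG00000014240 and the second highest for ENSOARG00000020201. It stood at 21.9, 20.4, 3.26 and 2.63 times the HT anestrous median for ENSOARG00000020185, ENSOARG00000018621, ENSOARG00000020201 and ENSOARG00000014240. These levels rest on 11189, 5771, 1101 and 541 counts in a library of 22408314. Library 15 ranked 21 of 21 for ENSOARG00000020185 and 16 of 21 for ENSOARG00000018621, but 7 of 21 for ENSOARG00000020201 and 3 of 21 for ENSOARG00000014240. Relative to its group median it stood at 0.218, 0.335, 0.980 and 1.64 times, in the order above. Its counts were 310, 263, 919 and 940 of 33586399. The low share of its 10 largest features and its TMM factor of 1.45, against 0.73 to 0.99 in the other HT anestrous libraries, moved with these values, and their part in them was not tested.

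Among the cycling hypothalamus libraries, the 4 features were high in the same few. ENSOARG00000020185 ran from 7.37 CPM to 62.3 in the HT luteal libraries (median 11.2, mean 23.5 ± 22.3 SD, n = 7), with libraries 5 (48.5) and 6 (62.3) far above the other 5. In the HT follicular libraries it ran from 7.70 to 29.5 (median 10.8, mean 13.2 ± 7.40 SD, n = 7), with library 14 highest. ENSOARG00000018621 ran from 2.22 to 29.8 CPM in the luteal group (median 7.17, mean 12.5 ± 11.9 SD, n = 7) and from 1.07 to 14.5 in the follicular group (median 5.75, mean 6.36 ± 4.18 SD, n = 7). Libraries 5 and 6 were the highest luteal and library 14 the highest follicular library for this feature too.

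ENSOARG00000020201 ran from 8.42 to 26.4 CPM in the HT luteal libraries (median 11.3, mean 14.7 ± 7.04 SD, n = 7) and from 4.85 to 12.5 in the HT follicular libraries (median 7.13, mean 7.81 ± 2.83 SD, n = 7). ENSOARG00000014240 ran from 2.72 to 13.8 CPM (median 7.50, mean 7.86 ± 3.87 SD, n = 7) and from 2.09 to 7.11 (median 2.89, mean 3.85 ± 1.956 SD, n = 7). Libraries 5, 6 and 14 were the highest of their groups for both.

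The follicular minus anestrous difference in the hypothalamus chose the 4 features. The edgeR fit of the 21 HT libraries gave log2 fold changes of -3.70 for ENSOARG00000020185, -3.80 for ENSOARG00000018621, -2.15 for ENSOARG00000020201 and -2.11 for ENSOARG00000014240. The fit follows group means, which libraries 16, 17 and 19 raised. The log2 ratio of the group medians was -1.44, -1.49, -1.43 and -2.02. Without library 15 it was -3.18, -3.43, -2.09 and -1.98, so the order of the features by median turned. For the first 3 features library 15 lay below the group median, and leaving out any other library below that median gives the same value. Without library 17 the fitted values were -2.81, -2.92, -1.94 and -1.88, and without libraries 15 and 17 they were -3.04, -3.14, -2.03 and -1.75. The numbers of HT anestrous libraries above the highest HT follicular library were 3, 4, 6 and 6 of 7, in the same order. In this comparison edgeR called 0 of 16350 features at an adjusted p under 0.05, which is 0.0% of them, with 1688 at an unadjusted p under 0.05.

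The luteal hypothalamus lay between the other phases for all 4 features by mean. Luteal minus anestrous log2 fold changes were -2.87 for ENSOARG00000020185, -2.83 for ENSOARG00000018621, -1.24 for ENSOARG00000020201 and -1.08 for ENSOARG00000014240. For each feature, 3 of 7 anestrous libraries lay above the highest luteal library, so the groups overlapped (edgeR called 0.0% of all features here). Luteal minus follicular values were 0.83, 0.97, 0.91 and 1.03. The matching ratios of medians were 0.05, 0.32, 0.67 and 1.38, and without library 6 the fitted value of ENSOARG00000020185 was 0.36. Without library 5 the fitted value of ENSOARG00000018621 was 0.58, its lowest with 1 library left out. The means of ENSOARG00000020185 and ENSOARG00000018621 thus leaned in part on libraries 5 and 6, whereas ENSOARG00000020201 and ENSOARG00000014240 differed by median too. The 3 HT comparisons share their libraries with one another and with the choice of features.

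In the pars tuberalis the 4 features gave a separate set of values, since those libraries took no part in their choice by the hypothalamus. ENSOARG00000020185 and ENSOARG00000018621 were, however, already known to differ in their phase response between the tissues, so the direction of their follicular minus anestrous difference in PT is not independent evidence. ENSOARG00000020185 ran from 16.7 to 46.0 CPM in PT luteal (median 24.98, mean 28.5 ± 9.73 SD, n = 7), from 20.8 to 109.6 in PT follicular (median 38.98, mean 46.7 ± 30.2 SD, n = 7) and from 15.5 to 38.1 in PT anestrous libraries (median 24.6, mean 24.8 ± 7.84 SD, n = 7). The groups overlapped, and follicular library 30 held the highest value of the 21, well above library 29 at 57.4 CPM.

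ENSOARG00000018621 ran from 4.44 to 16.1 CPM in PT luteal (median 5.95, mean 8.69 ± 5.10 SD, n = 7), from 3.19 to 96.6 in PT follicular (median 10.9, mean 21.7 ± 33.2 SD, n = 7) and from 4.02 to 20.4 in PT anestrous libraries (median 4.25, mean 6.84 ± 6.04 SD, n = 7). Library 30 again held the highest value, and 1 anestrous library, 38, exceeded the other 6. Without library 30 the highest PT follicular value was 12.9 CPM.

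ENSOARG00000020201 ran from 13.1 to 29.1 CPM in PT luteal (median 19.4, mean 20.6 ± 5.82 SD, n = 7), from 9.83 to 39.6 in PT follicular (median 12.6, mean 16.4 ± 10.4 SD, n = 7) and from 9.74 to 28.4 in PT anestrous libraries (median 16.1, mean 18.1 ± 6.23 SD, n = 7). ENSOARG00000014240 ran from 7.94 to 19.6 CPM (median 14.97, mean 14.1 ± 4.36 SD, n = 7), from 5.99 to 16.1 (median 10.7, mean 11.4 ± 3.21 SD, n = 7) and from 8.42 to 21.2 (median 9.22, mean 11.9 ± 4.59 SD, n = 7), in the same order of groups. Library 30 was the highest follicular library for these features as well.

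None of the 4 features passed the test in any PT phase comparison. In follicular minus anestrous, edgeR's quasi-likelihood test with Benjamini-Hochberg adjustment called 0.0% of 16301 features, with 1055 at an unadjusted p under 0.05. ENSOARG00000020185 had a log2 fold change of 0.91 (95% interval 0.28 to 1.54, edgeR adjusted p = 0.702), and ENSOARG00000018621 had 1.65 (0.37 to 2.93, edgeR adjusted p = 0.702). Both are of the opposite sign to the HT values of -3.70 and -3.80. Without library 30 they were 0.54 and 0.42, so that 1 library supplied much of both. Without anestrous library 38 that of ENSOARG00000018621 was 2.23. ENSOARG00000020201 stood at -0.14 (-0.72 to 0.44, edgeR adjusted p = 0.936), at -0.53 without library 30 and at -0.003 without anestrous library 36. ENSOARG00000014240 stood at -0.07 (-0.56 to 0.42, edgeR adjusted p = 0.971). Whether phase effects differ between tissues was not tested for these features, because the HT effect chose them.

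In PT luteal minus anestrous, edgeR also called 0.0% of 16301 features (526 at an unadjusted p under 0.05). The 4 features had log2 fold changes of 0.19, 0.34, 0.18 and 0.23, with intervals of -0.43 to 0.82, -0.93 to 1.60, -0.40 to 0.76 and -0.26 to 0.72 (edgeR adjusted p = 0.999 for each), in the order ENSOARG00000020185, ENSOARG00000018621, ENSOARG00000020201 and ENSOARG00000014240. Over single left-out libraries they ran from 0.04 to 0.33, 0.12 to 0.92, 0.07 to 0.32 and 0.14 to 0.44. In luteal minus follicular, again with 0.0% called and 1380 at an unadjusted p under 0.05, ENSOARG00000020185 stood at -0.71 (-1.34 to -0.09, edgeR adjusted p = 0.528) and ENSOARG00000018621 at -1.31 (-2.58 to -0.04, edgeR adjusted p = 0.579). Without library 30 these were -0.35 and -0.08. ENSOARG00000020201 stood at 0.32 (edgeR adjusted p = 0.772) and, without library 30, at 0.70. ENSOARG00000014240 stood at 0.29 (edgeR adjusted p = 0.752). The 3 PT comparisons share libraries. DESeq2 called 6 (0.0267%), 4 (0.0178%) and 14 (0.0622%) of 22501 features in the 3 comparisons and limma-voom called 1 (0.00613%), 0 and 0 of 16301, and the 4 features were not among them.

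The luteal libraries allowed a comparison of the tissues without the anestrous HT libraries. ENSOARG00000014240 was higher in PT, with a log2 fold change of 0.87 ± 0.31 (SE; 95% interval 0.20 to 1.54, edgeR adjusted p = 0.0286). Of the 7 PT luteal libraries, 5 lay above the highest HT luteal library, and 2 fell inside the HT range. Differences between tissues were common: edgeR called 55.4% of 15929 features, and 27.4% were called higher in PT, so 1 call among 4 features is not above that background. DESeq2, which called 44.0% of features, and limma-voom, which called 57.8%, also called ENSOARG00000014240 (adjusted p = 0.0176 and 0.0471) and none of the other 3. The call was lost when HT luteal library 1 or 3, or PT luteal library 23 or 24, was left out (edgeR adjusted p = 0.0574, 0.0503, 0.0589 and 0.0568). ENSOARG00000020201 stood at 0.51 (-0.06 to 1.09, edgeR adjusted p = 0.116) and passed only without HT luteal library 6, at 0.70 with an edgeR adjusted p of 0.0270. ENSOARG00000020185 stood at 0.31 (-0.68 to 1.297, edgeR adjusted p = 0.590) and ENSOARG00000018621 at -0.49 (-1.65 to 0.66, edgeR adjusted p = 0.457). When 1 library was left out they ran from 0.14 (without HT library 2) to 0.76 (without HT library 6) and from -0.73 (without PT library 28) to -0.13 (without HT library 6). The intervals reach past a 2-fold difference, so they do not show equal levels.

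**Figure D2:**
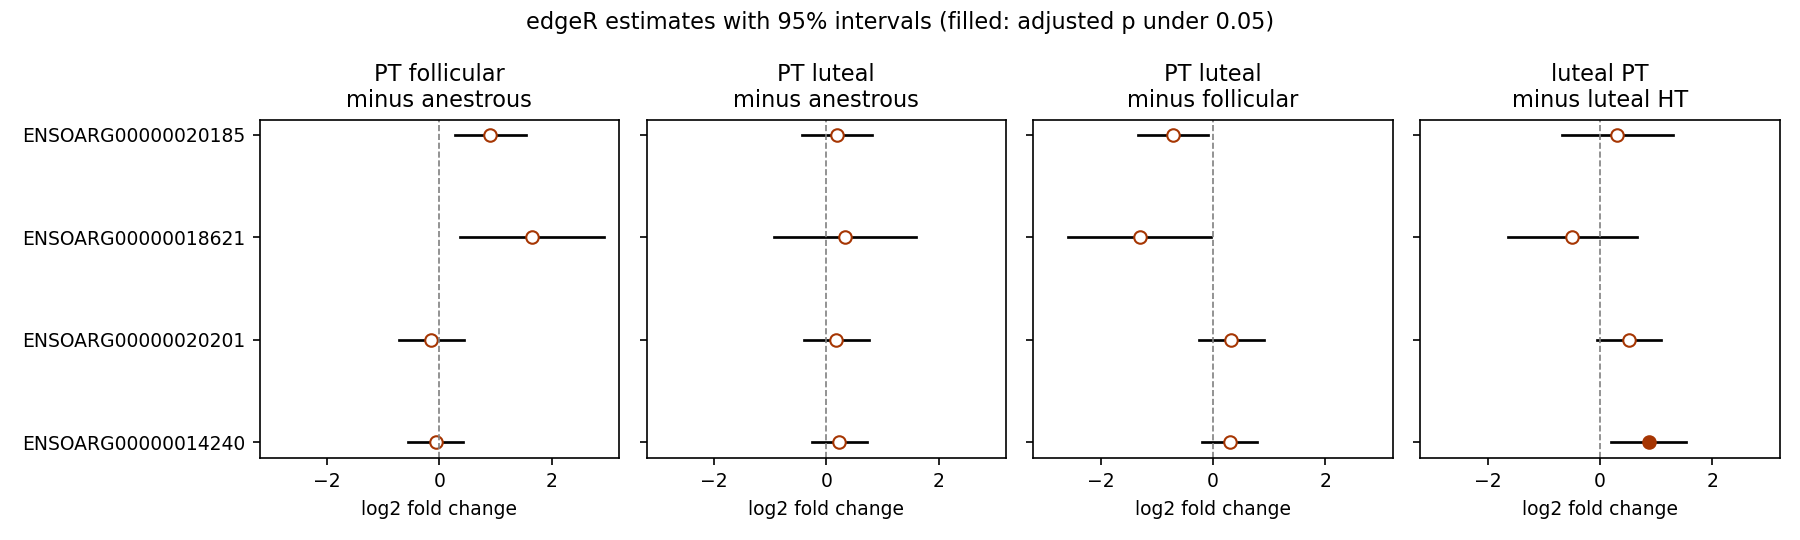
Log2 fold changes of the 4 features with 95% intervals in the 3 PT phase comparisons and in luteal PT minus luteal HT (edgeR), filled where the adjusted p was under 0.05. Only ENSOARG00000014240 in luteal PT minus HT, at 0.87, is filled, and ENSOARG00000018621 has the widest interval in each panel.

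The order of the 6 groups by median differed between the features. For ENSOARG00000020185 it was PT follicular (38.98 CPM), HT anestrous (29.1), PT luteal (24.98), PT anestrous (24.6), HT luteal (11.2) and HT follicular (10.8), and every pair of neighbours overlapped. For ENSOARG00000018621 it was HT anestrous (16.1), PT follicular (10.9), HT luteal (7.17), PT luteal (5.95), HT follicular (5.75) and PT anestrous (4.25), again with overlap between all neighbours. For ENSOARG00000020201 it was PT luteal (19.4), HT anestrous (19.2), PT anestrous (16.1), PT follicular (12.6), HT luteal (11.3) and HT follicular (7.13), with all neighbours overlapping. For ENSOARG00000014240 it was PT luteal (14.97), HT anestrous (11.7), PT follicular (10.7), PT anestrous (9.22), HT luteal (7.50) and HT follicular (2.89), and here too neighbours overlapped. HT follicular was the lowest group for 3 of the features, and 6 of 7 PT follicular libraries and all 7 of the PT luteal and PT anestrous libraries lay above its range for ENSOARG00000014240. The features were chosen for counts lower in HT follicular than in HT anestrous libraries, so this low place is partly set by the choice. How many of all features show such a gap was not counted.

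The 4 features varied together across the cycling hypothalamus libraries. The HT follicular libraries among them helped to choose the features. The p-values of these libraries are therefore descriptions and not independent support. Over the 14 HT luteal and follicular libraries, with phase means removed, the 6 pairs had Pearson r of 0.885 (ENSOARG00000020185 with ENSOARG00000018621), 0.829 (ENSOARG00000020185 with ENSOARG00000020201), 0.780 (ENSOARG00000020185 with ENSOARG00000014240), 0.680 (ENSOARG00000018621 with ENSOARG00000020201), 0.691 (ENSOARG00000018621 with ENSOARG00000014240) and 0.729 (ENSOARG00000020201 with ENSOARG00000014240). Permutation p-values within phases, two-sided and adjusted over the 12 correlations computed in both tissues, were 0.00168, 0.0119, 0.00372, 0.0274, 0.0233 and 0.0143 in that order, from raw values of 0.00014, 0.00396, 0.00093, 0.0160, 0.0116 and 0.00596. Spearman rho was 0.789, 0.635, 0.706, 0.459, 0.565 and 0.622, with adjusted permutation p of 0.0274, 0.0606, 0.0443, 0.208, 0.0945 and 0.0606, so 2 of 6 pairs passed by rank.

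Leaving out the 2 libraries farthest from the median, which were HT luteal 5 and 6 for every pair, gave r of 0.761, 0.527, 0.710, 0.301, 0.495 and 0.569 over 12 libraries. None passed over these fewer libraries (adjusted permutation p 0.0834, 0.228, 0.0834, 0.647, 0.228 and 0.178), so no call held without them. All 6 values stayed positive, and ENSOARG00000020185 kept its calls with ENSOARG00000018621 and ENSOARG00000014240 when any 1 library was left out. As background, the median r of each of the 4 features with all others tested in the same libraries lay between 0.003 and 0.02, with 5th percentiles from -0.51 to -0.37 and 95th percentiles from 0.46 to 0.55. Values of a library share its depth and composition. The choice of the features used the follicular libraries. Removing phase means takes out their level, but the HT p-values are not fully separate from the choice. Within the 7 HT luteal libraries alone r was 0.954, 0.932, 0.798, 0.868, 0.852 and 0.799, in the order used above. Within the 7 HT follicular libraries it was 0.754, 0.626, 0.798, 0.3585, 0.427 and 0.617. These values by phase are descriptions, with no test.

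In the pars tuberalis only the pair ENSOARG00000020185 and ENSOARG00000018621 passed. Over 21 libraries with phase means removed its r was 0.789 (raw permutation p = 0.00038, adjusted 0.00228) and its rho 0.582 (adjusted permutation p = 0.0458). Without follicular libraries 30 and 33 r was 0.552, with an adjusted permutation p of 0.0834, and without library 30 alone it was 0.63 and passed. The other pairs had r of 0.476, 0.210, 0.368, 0.164 and 0.043, with adjusted permutation p of 0.0981, 0.453, 0.232, 0.517 and 0.854, in the order used above. Library 30 raised these too: without it the r of ENSOARG00000020185 with ENSOARG00000020201 was 0.098 and that of ENSOARG00000018621 with ENSOARG00000020201 was -0.24. The pair ENSOARG00000020185 and ENSOARG00000020201 passed without luteal library 22, at 0.602 with an adjusted permutation p of 0.0315, and without luteal library 27, at 0.595. Within single PT phases, described with no test, only ENSOARG00000020185 with ENSOARG00000018621 kept the sign of r. Its r was 0.58 in PT luteal, 0.94 in PT follicular and 0.53 in PT anestrous libraries. ENSOARG00000020185 with ENSOARG00000020201 had r of -0.827 in PT luteal, 0.928 in PT follicular and 0.604 in PT anestrous libraries. ENSOARG00000018621 with ENSOARG00000020201 had r of -0.768, 0.963 and -0.156 in the same order. For ENSOARG00000014240, r was 0.19, 0.50 and -0.21 with ENSOARG00000020185. With ENSOARG00000018621 it was -0.06, 0.51 and -0.17, and with ENSOARG00000020201 it was -0.22, 0.51 and -0.29.

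**Figure D3:**
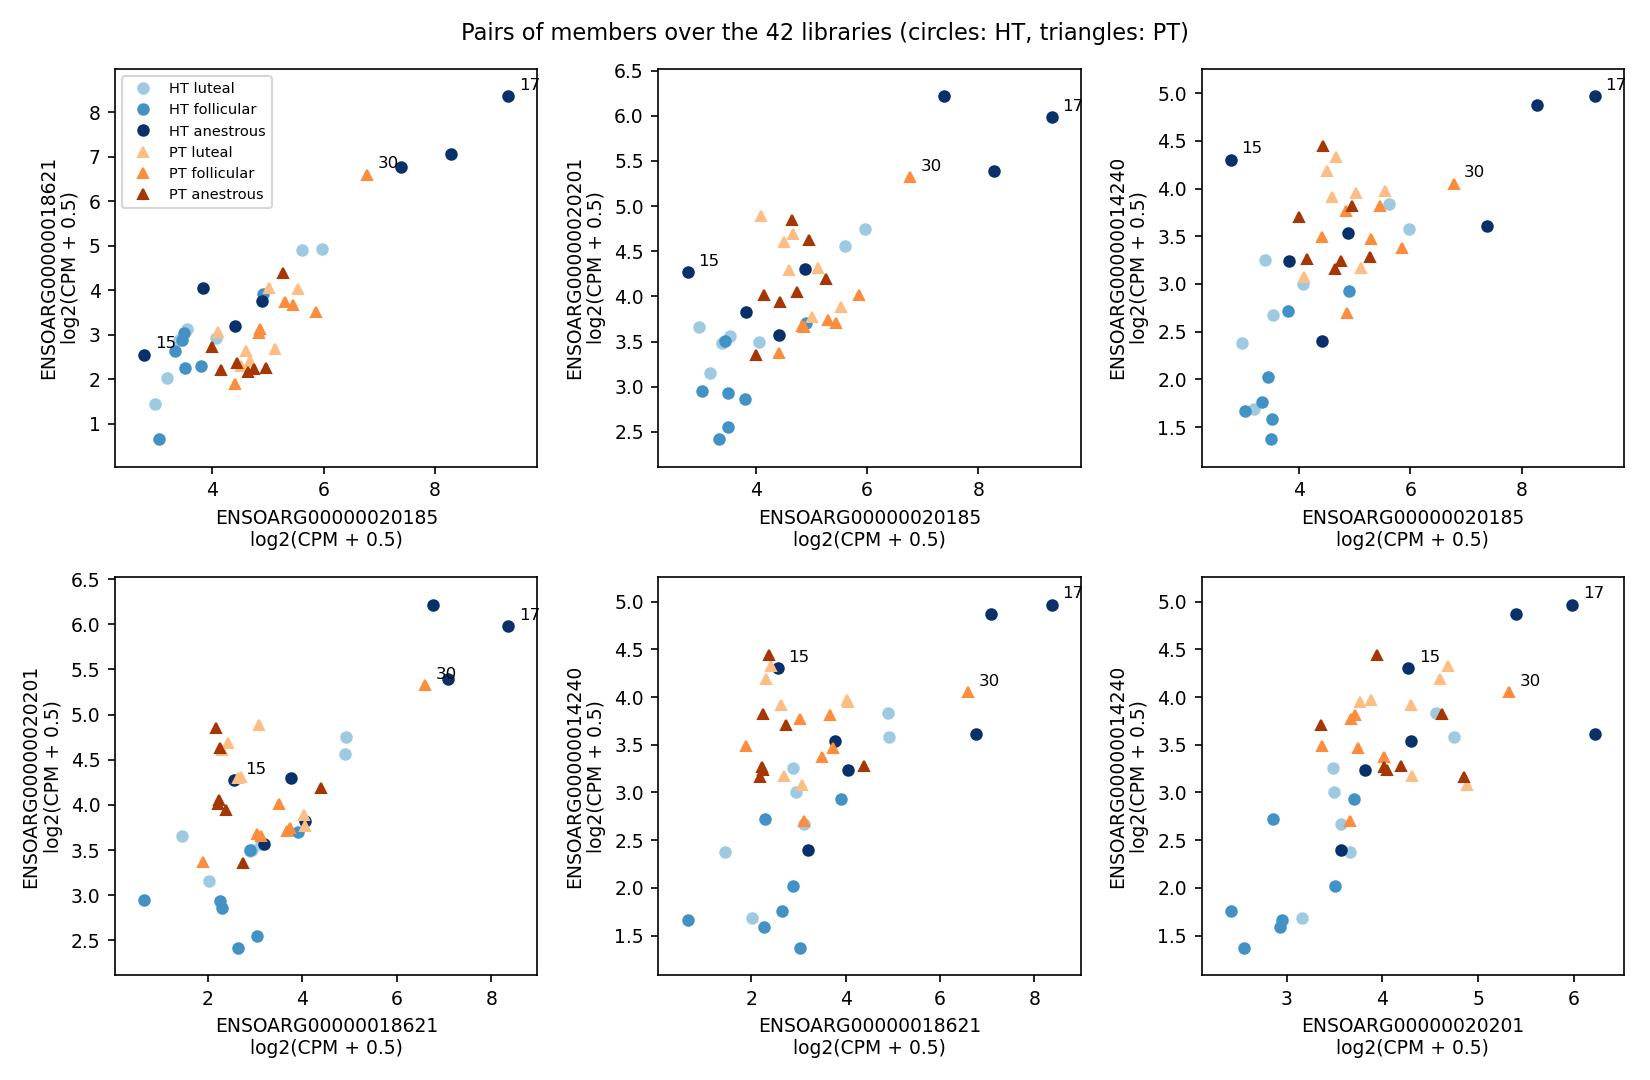
Log2(CPM + 0.5) of each pair of the 4 features over the 42 libraries, with circles for HT, triangles for PT and libraries 15, 17 and 30 numbered. Points of ENSOARG00000020185 and ENSOARG00000018621 lie along a rising band in both tissues, while library 15 lies to the left of the other points, at high values of ENSOARG00000020201 and ENSOARG00000014240, in the panels of these with ENSOARG00000020185.

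The r of a pair was larger in the cycling hypothalamus than in PT for all 6 pairs, but the difference passed for none. The HT side holds the follicular libraries that helped to choose the features, so this comparison cannot settle whether the tissues differ. Permutation of the tissue labels gave adjusted p of 0.475, 0.344, 0.0794, 0.475, 0.0846 and 0.0794 over the 6 pairs, in the order used above. The lower values belong to the 3 pairs with ENSOARG00000014240, where r fell from 0.780, 0.691 and 0.729 in HT to 0.210, 0.164 and 0.043 in PT.

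With the anestrous libraries included, which chose the features, r over the 21 HT libraries with no phase mean removed was 0.957, 0.863, 0.736, 0.873, 0.776 and 0.848. The same measure over the 21 PT libraries was 0.824, 0.262, 0.119, 0.235, 0.118 and 0.123. Within the 7 HT anestrous libraries it was 0.977, 0.860, 0.598, 0.892, 0.637 and 0.661. Without library 15 the pairs of ENSOARG00000014240 with ENSOARG00000020185 and ENSOARG00000018621 went from 0.598 and 0.637 to 0.877 and 0.883. These values are descriptions, with no test.

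The counts of ENSOARG00000020185 and ENSOARG00000018621 were also compared as a ratio within libraries. Its median was 2.09 in HT luteal, 2.04 in HT follicular and 1.94 in HT anestrous libraries, and 4.14, 3.54 and 4.52 in the matching PT groups. The ratio depends on the lengths of both features, which cancel only between libraries. In the luteal phase the PT mean log2 ratio was 0.84 above that of HT (1.84 against 0.99). An exact two-sided permutation test of the 14 luteal libraries gave p = 0.0175, or 0.105 adjusted over the 6 pairs, so the difference did not pass.

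The 4 features were also set against the share of counts taken by the 10 largest features of a library, over the 21 libraries of a tissue with phase means removed. In PT, r with this share ran from -0.19 to 0.29 and rho from -0.16 to 0.38. None passed: the lowest adjusted permutation p, over the 8 relations computed in both tissues, was 0.835 for r and 0.769 for rho. Without PT libraries 23 and 24, of most extreme share, r ran from -0.38 to 0.36. In HT, where the anestrous spread chose the features, r is a description and ran from -0.02 to 0.18, or from -0.12 to 0.13 without libraries 3 and 15.

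Other features of the table followed the same HT libraries. Likeness was measured as the Pearson r, over the 21 HT libraries, of a feature's log2(CPM + 0.5) with the mean of the 4 standardized features. The highest r outside the 4 belonged to ENSOARG00000014814 (0.963, and 0.878 over the 21 PT libraries) and ENSOARG00000012108 (0.949, and 0.742 in PT). ENSOARG00000014814 stood at 30.1 CPM in library 15 and 1378 in library 17, with medians of 20.9, 20.3 and 72.1 in HT luteal, follicular and anestrous libraries. ENSOARG00000012108 stood at 1.21 and 230.5 CPM, with medians of 1.64, 1.36 and 4.29. The lowest r belonged to ENSOARG00000007540 (-0.785, and -0.07 in PT) and ENSOARG00000015128 (-0.777, and -0.30 in PT). ENSOARG00000007540 stood at 46.4 CPM in library 15 and 22.99 in library 17. Without libraries 15 and 17, the first 2 ranked 1 and 4 from the top and the last 2 ranked 7 and 4 from the bottom.

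An r of 0.8 or more was reached by 105 of 16346 other features in the hypothalamus (0.642%), and an r of -0.8 or less by 0. Without libraries 15 and 17 the number at 0.8 or more was 76, and over the luteal and follicular libraries alone it was 56. The same count in PT, over 16297 features and the PT values of the 4 features, was 12 (0.0736%). The 105 features were chosen on the HT libraries, so their HT values are descriptions. All 105 stood above their HT median in each of libraries 16, 17 and 19, with a median log2 deviation of 1.49, 2.51 and 2.03. In libraries 5, 6 and 14, 103, 104 and 89 of 105 did, with median deviations of 0.87, 1.07 and 0.55. In library 15 only 28 did, with a median deviation of -0.17. The median deviation of all other features lay within 0.03 of 0 in each of these 7 libraries.

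The PT libraries took no part in choosing the 105 features. Over 21 PT libraries their median r was 0.523 with ENSOARG00000020185, 0.506 with ENSOARG00000018621, 0.259 with ENSOARG00000020201 and 0.170 with ENSOARG00000014240, while all 16300 other features had medians between -0.02 and 0.03. Phase means were kept and library 30 was included. How far library 30 alone supplied these medians was not tested. In PT follicular library 30, 98 of 105 stood above the PT median, with a median log2 deviation of 0.77, the highest of the 21 PT libraries. Luteal library 27 followed with 87 of 105 and 0.43. Library 30 was therefore high for the features that followed the 4 in the hypothalamus. Of the 4 themselves, it ranked 1 of 21 in PT for ENSOARG00000020185, ENSOARG00000018621 and ENSOARG00000020201. For ENSOARG00000014240 it ranked 4 of 21. The marker lists drawn up for cell types of these tissues need gene symbols and could not be applied, so whether these libraries also differ in tissue makeup was not tested.

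**Figure D4:**
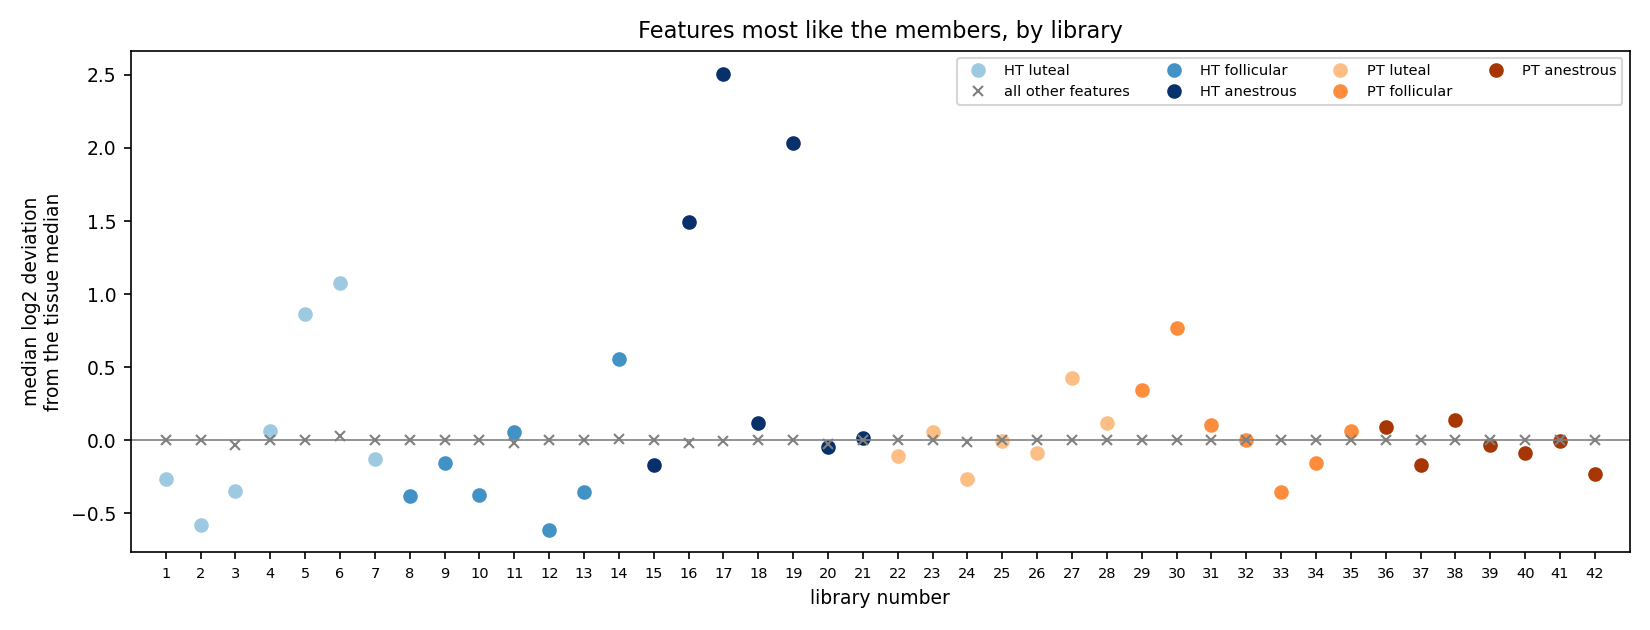
Median log2 deviation from the tissue median of the 105 features most like the 4 (circles) and of all other features (grey crosses) in each of the 42 libraries. The circles reach 1.49 to 2.51 in libraries 16, 17 and 19 and 0.77 in PT library 30, while the crosses stay near 0.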

How the data were processed

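The deposited file is a single table of raw counts for 42 libraries, in which every value is a whole number and rows are Ensembl sheep IDs. Per the labels' protocols, total RNA of integrity number above 7 came from frozen tissue and was sequenced on an Illumina HiSeq. The tools named in the submitters' processing notes, with no steps attached to them, are HISAT2 2.1.0 and StringTie 1.3.5, SAMtools 1.7, Trimmomatic 0.38 and FastQC 0.11.5, and R 3.5.1 with DESeq2. Build, annotation, strand setting and treatment of shared reads are each not given in the sources used here, which leaves counts uncertain for any feature with a close copy or an overlapping neighbour.

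Library totals were 14649356 to 37726207, and 3463 of 27054 features had 0 counts everywhere. Tests used edgeR 4.0.16 in R 4.3.3 (TMM, filterByExpr with a minimum count of 10, robust quasi-likelihood F test, two-sided, Benjamini-Hochberg adjustment over all features tested, threshold 0.05), with 1 fit of 21 libraries per tissue and 1 of the 14 luteal libraries. The biological coefficient of variation was 43.3% in HT, 31.9% in PT and 36.2% in the luteal fit. All 4 features passed the filter in each fit, with at least 24 counts in every library. Correlations used log2(CPM + 0.5) less phase means and 100000 permutations within phases (Python 3.11.15, NumPy 2.4.6, SciPy 1.17.1). The fitting script was tested on simulated data.

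The 4 features, the gene lists and the tests were chosen with earlier results of these data known. Named by rule were the 4 and, outside them, the 2 highest and 2 lowest by likeness over the HT libraries. Alternatives were DESeq2 1.42.0, limma-voom (limma 3.58.1), RLE size factors, no filter, another pseudocount (2), wider fits and leaving out each library. The tissue difference of r, the count ratio, the top 10 share, the 105 features and the fits with no TMM factor were added after the data were seen.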

Additional observations from a re-analysis of the deposited data

Results flagged for a closer look

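In 7 of the 24 sets of 7 libraries (4 features in 6 groups), 1 library lay far from the other 6, by the gap to its nearest neighbour over the whole range of the group. For normally distributed values chance flags about 1 in 20 such groups, but this rate is no yardstick here. The rule was applied to CPM and not to log2 values, and all 7 flagged libraries were the highest of their groups. The HT anestrous and HT follicular groups, with 2 of the 7, served to choose the features, and the same libraries recur between features.

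PT follicular library 30 was set apart for 3 features. It held 109.6 CPM of ENSOARG00000020185, where the next library held 57.4, 96.6 CPM of ENSOARG00000018621, where the next held 12.9, and 39.6 CPM of ENSOARG00000020201, where the next held 15.7. HT anestrous library 17 held 328.4 CPM of ENSOARG00000018621, against 134.3 in the next library. HT follicular library 14 held 29.5 CPM of ENSOARG00000020185, against 13.4. In PT anestrous libraries, library 38 held 20.4 CPM of ENSOARG00000018621, against 6.14, and library 39 held 21.2 CPM of ENSOARG00000014240, against 13.6.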

How the results depend on the processing

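In the PT phase comparisons edgeR called 0 features in each, and leaving out any 1 library left every count at 0. DESeq2 called 6, 4 and 14 features and limma-voom 1, 0 and 0. The log2 fold change of ENSOARG00000014240 in PT follicular minus anestrous turned to 0.026 with limma-voom, and ran from -0.17 to 0.14 when 1 library was left out. The luteal tissue calls ran from 8365 to 9185 over the left-out libraries, with ENSOARG00000014240 between 0.70 and 1.04 and ENSOARG00000020201 between 0.39 and 0.70. The ratio of medians moved HT follicular minus anestrous to -1.44 for ENSOARG00000020185 and -1.49 for ENSOARG00000018621, and the same ratios without library 15 were -3.18 and -3.43. Without the 2 farthest libraries the cycling HT correlations fell to 0.761, 0.527, 0.710, 0.301, 0.495 and 0.569 and lost their calls. In PT, ENSOARG00000020185 with ENSOARG00000018621 fell to 0.552 and lost its call, and 2 uncalled pairs turned to -0.33 (ENSOARG00000018621 with ENSOARG00000020201) and -0.13 (ENSOARG00000020201 with ENSOARG00000014240). The cause of these changes was not tested. Over 1 left-out library, the HT correlations that lost a call in some setting ran from 0.748 to 0.892 (ENSOARG00000020185 with ENSOARG00000020201, lost without 14), 0.575 to 0.771 (ENSOARG00000018621 with ENSOARG00000020201, lost without 2, 5, 6 or 14), 0.616 to 0.773 (ENSOARG00000018621 with ENSOARG00000014240, lost without 5 or 14) and 0.667 to 0.801 (ENSOARG00000020201 with ENSOARG00000014240, lost without 5 or 14). The PT correlations ran from 0.098 to 0.602 (ENSOARG00000020185 with ENSOARG00000020201), -0.239 to 0.471 (ENSOARG00000018621 with ENSOARG00000020201), -0.069 to 0.257 (ENSOARG00000018621 with ENSOARG00000014240) and -0.219 to 0.167 (ENSOARG00000020201 with ENSOARG00000014240). Counting error of the 4 features was at most 20.4%, at 24 counts. No paired analysis was possible because the labels give each library a number of its own and tie none to a ewe.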
